A study of Rattus norvegicus with 12 samples.

Results

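Expression of Ccng1 and of 8 other target genes of the transcription factor p53 (Mdm2, Cdkn1a, Gadd45a, Btg2, Bax, Bbc3, Pmaip1 and Sesn2) was measured in the colon of male Wistar rats. The members were chosen by gene name, as every probe on the array that carries the symbol of a listed gene, and 10 of 30367 probes did so, for 8 of the 9 genes. Sesn2 had no probe of that name, and 1 probe that carries its RefSeq transcript under the older name RGD1566319 is given beside the others. Ccng1 was put on the list because its signal in Group M was far from that in Group C in these same arrays, so its values are described and not tested in any comparison. The 3 comparisons share arrays.

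Group C held 4 rats (C1 to C4) that stayed with the dam and received placebo. Group M held 4 rats (M5 to M8) that underwent neonatal maternal separation (NMS), 180 min a day from postnatal day 2 to day 14, and received placebo. Group D held 4 rats (D9 to D12) with the same separation that received VSL#3, a mixture of probiotic bacteria. Placebo (saline) or VSL#3 was given daily by gavage from day 3 to day 60, every rat underwent colorectal distension, and the colon was collected at day 60. The rats are outbred, and the RNA came from a piece of whole colon near the anus, so fewer cells of a type and less RNA per cell cannot be told apart. The study analysed 11 of the 12 arrays. Rat D12 was not among them, and its value is printed beside those of each member and enters the alternative with all 12 arrays.

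The protein p53 is a transcription factor that is held at a low level by its own target Mdm2 and accumulates after DNA damage and other stresses. Its targets stop the cell cycle, start apoptosis, repair DNA, adjust metabolism and switch p53 off again, and in the gut epithelium it is best known for the death and arrest of crypt cells after irradiation. Many of its targets also have other inducers, and Ccng1 and Mdm2 are among the most regular ones across tissues.

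The probes of Ccng1, Mdm2 and Bax are printed here because the result on Ccng1 rests on 1 probe, against which those of the feedback gene Mdm2 and the apoptosis gene Bax are set. The sequences are those of the array files. The Ccng1 probe lies at chr10:25778638-25778912 on the minus strand of rn4, the rat genome build of the files, and its 60 bases are spread over 275 bases of the genome. The first of the 2 Mdm2 probes lies at chr7:57005501-57005835 on the minus strand and is spread over 335 bases. The Bax probe is given without a position.
Ccng1 probe A_44_P367761: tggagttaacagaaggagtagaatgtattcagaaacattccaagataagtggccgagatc
Mdm2 probe A_43_P16885: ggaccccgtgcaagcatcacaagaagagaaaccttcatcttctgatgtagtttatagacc
Bax probe A_43_P11800: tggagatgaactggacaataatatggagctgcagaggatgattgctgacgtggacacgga

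The stretch of 250 bases before the RefSeq transcript start was searched for the p53 site in 7 of the 9 genes, those matched by symbol. For each of these genes 1 start was used, the first listed, and sites near any other start were not looked for. The site is written as a half-site of 10 letters, or as 2 half-sites in a row with no bases between them. Both forms are their own reverse complement, so 1 search covers both strands. A half-site without mismatch was present in Ccng1, Cdkn1a and Gadd45a, and in 2221 of 33465 rat promoters of the same length (6.64%). The full site of 20 letters with at most 1 mismatch was present in Ccng1 and Cdkn1a, and in 20 of the 33465 promoters (0.0598%). The search was added after the values of Ccng1 were known. The promoters of Ccng1 (chr10:25684877-25685126, minus strand) and Cdkn1a (chr20:7150682-7150931, plus strand) are printed to show the site, in capitals, from RefSeq on the build GRCr8. The site starts 242 bases before the start used for Ccng1 and 201 bases before the start used for Cdkn1a. A match of letters is a description and says nothing of binding in these rats.
Ccng1 promoter: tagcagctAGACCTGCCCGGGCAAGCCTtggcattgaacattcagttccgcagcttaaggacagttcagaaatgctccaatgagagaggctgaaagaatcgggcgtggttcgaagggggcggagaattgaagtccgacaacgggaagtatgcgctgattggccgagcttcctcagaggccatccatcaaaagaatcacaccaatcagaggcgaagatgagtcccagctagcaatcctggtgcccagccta
Cdkn1a promoter: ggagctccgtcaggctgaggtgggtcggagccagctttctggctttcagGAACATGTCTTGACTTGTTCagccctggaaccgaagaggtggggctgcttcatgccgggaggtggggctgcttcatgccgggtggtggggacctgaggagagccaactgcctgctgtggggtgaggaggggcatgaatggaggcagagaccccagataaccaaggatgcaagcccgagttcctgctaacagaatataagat

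Values are log2 signals, with 0 at the 75th percentile of each array (a signal of 1434 to 1950 over the 12 arrays). On each array 75.5% to 77.5% of spots were well above background and 0 were saturated. The arrays of Groups C and M share 1 slide and those of Group D lie on a second, so in both comparisons with Group D the slide cannot be told apart from the group. On the shared slide, Group C lies in row 1 and Group M in row 2. In Group M vs Group C the array row therefore cannot be told apart from the group. A probe was called where the adjusted p of limma over all probes was at most 0.05 and the change at least 2-fold. The rats differed in the signal of T cell markers. The summed linear signal of 8 T cell markers (in multiples of the 75th percentile) was 5.22 in C2, 4.57 in M5, 3.16 in M7, 3.15 in M8 and 9.79 in D12, against 0.68 to 1.25 in the other 7 rats. The 12 markers of proliferating cells summed to 2.33 to 4.94 in Group C, 15.1, 2.96, 9.41 and 14.0 in M5 to M8, 2.65 to 3.18 in D9 to D11 and 10.7 in D12. Their part in the results below was not tested.

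Ccng1 had a low signal in Group C and a high one in every separated rat. Cyclin G1 is a p53 target that recruits a phosphatase to Mdm2. Its log2 signal was -3.15, -2.73, -2.86 and -0.96 in C1 to C4. It was 0.01, -0.03, 0.05 and 0.09 in M5 to M8. It was -0.13, -0.08 and -0.33 in D9 to D11, and 0.00 in D12.

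The lowest of the 8 separated rats (D11) lay 0.63 above C4, the highest rat of Group C. The 8 separated rats spread over only 0.42, whereas C4 lay 1.77 above the next rat of its own group. On the linear scale, C1, C2 and C3 had 11.7%, 15.6% and 14.3% of the mean of the 8 separated rats and C4 had 53.3%, and each separated rat had 82.4% to 110.2%. The means were -2.42 ± 0.99 in Group C, 0.03 ± 0.05 in Group M and -0.18 ± 0.14 in Group D (SD, n = 4, 4 and 3). Group M was 2.45 above Group C (5.47-fold) and Group D 2.24 above it (4.74-fold). Group D was 0.21 below Group M, and with D12 these 2 groups overlapped; without D11 the difference was -0.13. Without C4, Group M was 2.94 above Group C and Group D 2.73. Of the summed markers, C4 was the highest of Group C for fibroblasts (132 against 72.6 to 106), smooth muscle (209.6 against 163 to 174) and proliferating cells (4.94 against 2.33 to 4.08). Its T cell sum was 1.11, against 0.79 and 0.70 in C1 and C3 and 5.22 in C2, and its array had the lowest 75th percentile of the 12 (1434). The part of these in the level of C4 was not tested.

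Ccng1 is read by this single probe, and no other probe shares its transcript or lies within 10000 bases of it, so Ccng1 probes cannot be compared with each other on this array. The probe is printed on 2 spots, which differed by at most 0.28 on the log2 scale on any array (median 0.10). Both spots were well above background on all 12 arrays.

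**Figure D1:**
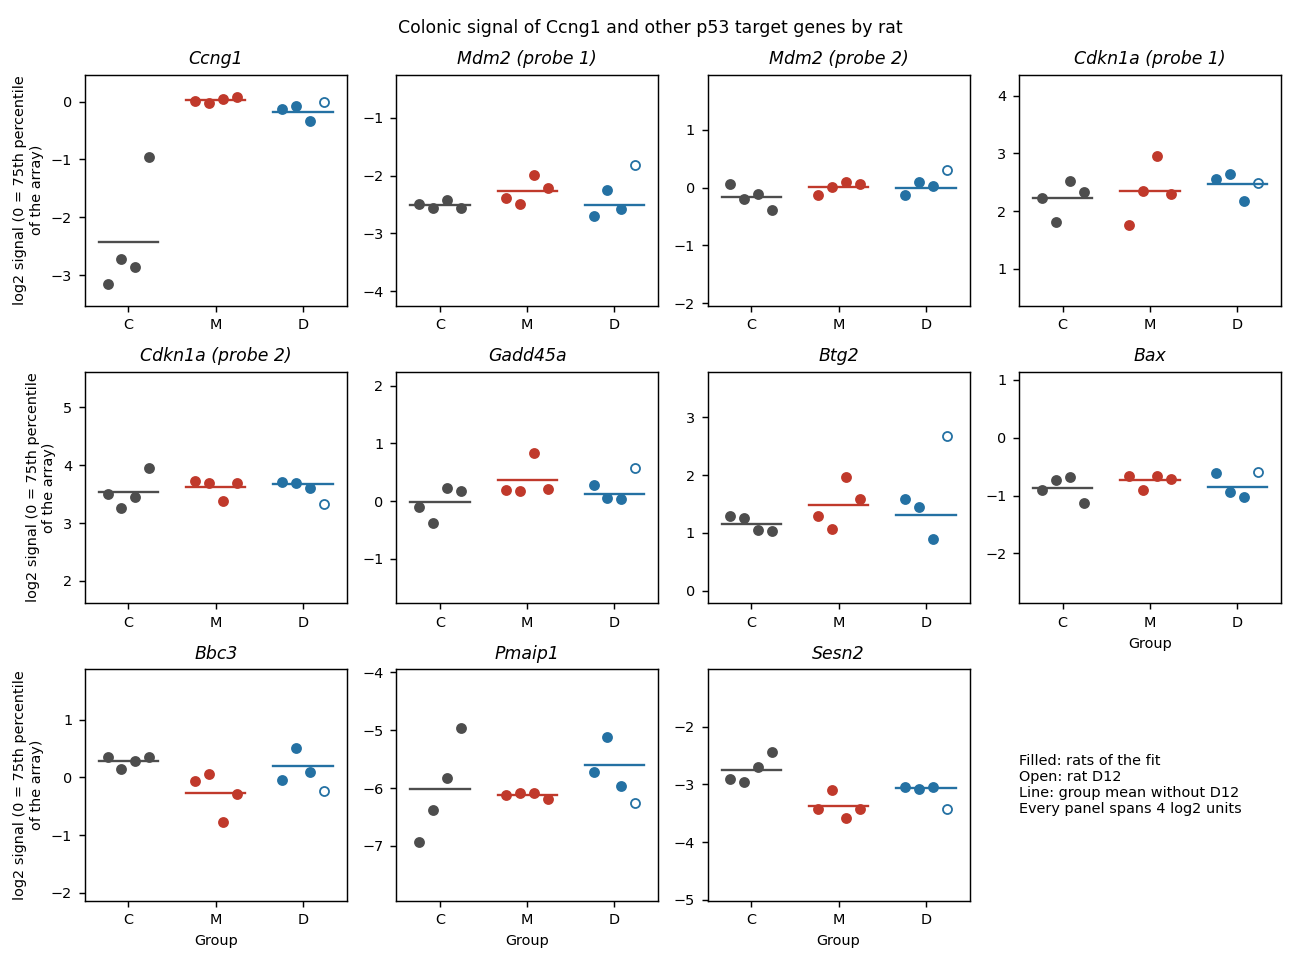
Log2 signal (0 is the 75th percentile of the array) of 11 probes in Groups C, M and D, one point per rat, with D12 open and the mean of the other rats as a line. Ccng1 lies at -3.15 to -0.96 in Group C and at -0.33 to 0.09 in the separated rats, whereas the groups overlap for most other probes; Mdm2 and Cdkn1a have a panel for each probe, in the order of the text.

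None of the other 8 genes followed Ccng1. Of their 10 probes, 0 were called in Group M vs Group C, where 0.168% of all probes were called. The values lay between -0.63 and 0.37 and the 95% interval of all 10 stayed within 2-fold. The raw limma p was 0.05 or less for 2 of the 10 probes and for 22.7% of all probes. The criterion of the study's methods (analysis of variance and Tukey test with a 2-fold change) was met by 0 of the 10, and by 2.33% of all probes. Group M lay wholly above Group C for 0 of the 10 probes (4.07% of all probes) and wholly below it for 2 (5.17%), those of Bbc3 and Sesn2.

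Mdm2, the ubiquitin ligase that degrades p53 and closes the feedback loop, was read by 2 probes. The first gave -2.50, -2.56, -2.41 and -2.56 in C1 to C4, -2.39, -2.50, -1.98 and -2.21 in M5 to M8, -2.69, -2.25 and -2.58 in D9 to D11 and -1.81 in D12. The second gave 0.06, -0.20, -0.11 and -0.38 in Group C, -0.12, 0.01, 0.10 and 0.07 in Group M, -0.14, 0.10 and 0.03 in D9 to D11 and 0.30 in D12. The groups overlapped for both probes, and D12 was the highest rat for both. Group M was 0.24 ± 0.13 (SE) above Group C by the first probe (adjusted p = 0.323 by limma) and 0.17 ± 0.11 by the second (adjusted p = 0.392 by limma). The 2 probes had an r of 0.58 over the 11 arrays and 0.74 over 12, as a description.

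Cdkn1a encodes p21, which inhibits cyclin-dependent kinases and holds cells before DNA synthesis. Its first probe gave 2.22, 1.80, 2.53 and 2.34 in C1 to C4, 1.77, 2.35, 2.96 and 2.30 in M5 to M8, 2.55, 2.65 and 2.19 in D9 to D11 and 2.50 in D12. Its second gave 3.50, 3.27, 3.45 and 3.96 in Group C, 3.72, 3.70, 3.38 and 3.69 in Group M, 3.70, 3.70 and 3.60 in D9 to D11 and 3.32 in D12. The groups overlapped for both probes. Group M was 0.12 ± 0.24 (SE) and 0.08 ± 0.15 above Group C (adjusted p = 0.818 and 0.806 by limma). The 2 probes did not rank the rats alike, with an r of 0.01 over the 11 arrays: M7 was the highest rat by the first probe and the lowest rat of Group M by the second. The first probe is read by 1 spot and the second by 2.

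Gadd45a, a small stress protein that takes part in arrest at mitosis and in DNA repair, gave -0.10, -0.37, 0.23 and 0.18 in C1 to C4, 0.19, 0.18, 0.84 and 0.22 in M5 to M8, 0.27, 0.06 and 0.04 in D9 to D11 and 0.57 in D12. Only M7 and D12 stood above the range of the other rats. Group M was 0.37 ± 0.18 (SE) above Group C (adjusted p = 0.252 by limma). Btg2, an antiproliferative protein that is also an immediate early gene, gave 1.29, 1.25, 1.05 and 1.04 in Group C, 1.29, 1.07, 1.97 and 1.59 in Group M, 1.59, 1.45 and 0.90 in D9 to D11 and 2.67 in D12. Its highest rats were again D12 and M7. Group M was 0.32 ± 0.21 (SE) above Group C (adjusted p = 0.383 by limma). Without M7, the difference between Group M and Group C was 0.21 for Gadd45a, 0.16 for Btg2 and 0.14 for the first Mdm2 probe.

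Of the genes of apoptosis, Bax, which forms pores in the outer mitochondrial membrane, gave -0.91, -0.73, -0.67 and -1.13 in C1 to C4, -0.66, -0.91, -0.66 and -0.72 in M5 to M8, -0.60, -0.94 and -1.03 in D9 to D11 and -0.59 in D12. The groups overlapped, with Group M 0.12 ± 0.13 (SE) above Group C (adjusted p = 0.628 by limma). Pmaip1 (Noxa), which neutralizes anti-apoptotic proteins of the Bcl2 family, was close to background. It was well above background in 2 of 4, 2 of 4 and 3 of 3 rats of Groups C, M and D9 to D11, at -6.93 to -4.97, -6.19 to -6.08 and -5.96 to -5.11, and at -6.26 in D12. The lowest signal well above background on an array was -6.85 to -6.51.

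Bbc3 (Puma), an activator of apoptosis by the mitochondrial route, was lower in each rat of Group M than in any rat of Group C. It gave 0.36, 0.14, 0.28 and 0.36 in C1 to C4, -0.06, 0.06, -0.78 and -0.28 in M5 to M8, -0.04, 0.52 and 0.10 in D9 to D11 and -0.24 in D12. M7 was the lowest rat, and Group D overlapped both other groups. Group M was 0.55 ± 0.19 (SE) lower than Group C on the log2 scale, 1.47-fold, which did not pass the adjusted threshold (adjusted p = 0.134 by limma).

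Sesn2, which restrains the growth kinase complex mTORC1 and responds to lack of amino acids as well as to p53, had the smallest adjusted p of the 8 genes. It gave -2.91, -2.96, -2.70 and -2.44 in C1 to C4, -3.43, -3.09, -3.58 and -3.42 in M5 to M8, -3.05, -3.08 and -3.04 in D9 to D11 and -3.42 in D12. The groups were in the order M, D, C with no overlap among the 11 rats, whereas D12 lay among Group M. Group M was 0.63 ± 0.14 (SE) lower than Group C on the log2 scale, 1.55-fold, and did not pass the adjusted threshold (adjusted p = 0.0904 by limma). It is read by 1 spot.

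In some rats the T cell signal ran opposite to both Bbc3 and Sesn2. C2, with the highest T cell sum of Group C, was its lowest rat for Bbc3 and Sesn2, as D12 was in Group D. M6, with the lowest T cell sum of Group M (0.69), was its highest rat for both, but M5, with the highest sum, was the lowest for neither. The part of the T cell signal was not tested. Without M6, the adjusted p of limma was 0.0427 for Bbc3 and 0.0128 for Sesn2, with differences of -0.66 and -0.73, still under 2-fold. Without M7, it was 0.28 for Bbc3 and 0.181 for Sesn2, with differences of -0.38 and -0.57. The omission of M6 raised the count over the whole array from 51 to 1778 probes.

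VSL#3 in separated rats was compared with placebo next. In Group D vs Group M, 0 of the 10 probes were called (0.125% of all probes), 1 had a raw limma p of 0.05 or less (21.6% of all probes) and 0 met the criterion of the methods (2.65%). Differences ran from -0.24 to 0.52. Bbc3 was 0.46 ± 0.20 (SE) higher in Group D (adjusted p = 0.218 by limma) and Sesn2 0.33 ± 0.15 (adjusted p = 0.238 by limma). The difference of Bbc3 was 0.29 without M7 and 0.30 without D10, and that of Pmaip1 0.28 without D10. Group D lay wholly above Group M for 2 probes (9.06% of all probes), those of Sesn2 and Pmaip1, and wholly below it for 0 (6.89%), and with D12 neither of the 2 held. The 95% interval stayed within 2-fold for 9 of the 10 probes, all but Pmaip1, whose interval reached 1.38.

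In Group D vs Group C, 0 of the 10 probes were called (0.00659% of all probes), 0 had a raw limma p of 0.05 or less (5.98%) and 0 met the criterion of the methods (0.366%). Differences ran from -0.31 (Sesn2) to 0.42 (Pmaip1), with adjusted p values of 0.865 to 0.999 by limma. Without C4 they were -0.20 for Sesn2 and 0.78 for Pmaip1, and Pmaip1 was at 0.12 without C1 and 0.18 without D10. Group D lay wholly above Group C for 0 of the 10 (3.82% of all probes) and wholly below it for 1 (3.78%), that of Sesn2, with D12 as well. The 95% interval again stayed within 2-fold for 9 of the 10 probes, all but Pmaip1 with an upper end of 1.28.

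**Figure D2:**
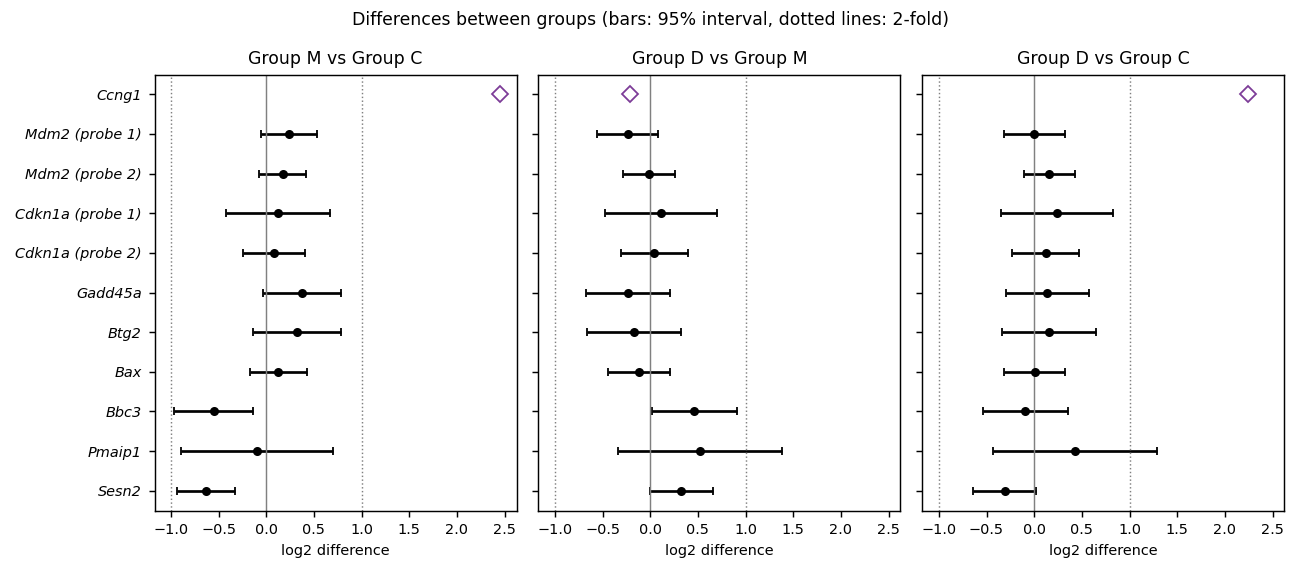
Log2 differences of the 11 probes in the 3 comparisons, with the 95% interval of limma as bars and 2-fold as dotted lines. Ccng1 is drawn as an open diamond without an interval, since it was chosen from these values; the other points lie between -0.63 and 0.52.

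Of 17 measured genes that encode relatives or regulators of p53, 0 were called in any comparison (0.168%, 0.125% and 0.00659% of all probes). The criterion of the methods was met by 0 of them in any comparison (2.33%, 2.65% and 0.366% of all probes). A raw limma p of 0.05 or less was found for 1, 5 and 2 of the 17, against 22.7%, 21.6% and 5.98% of all probes. Cdkn2a, whose product Arf holds Mdm2 off p53, and the damage kinase gene Chek2 had the largest differences in Group M vs Group C among those well above background on all 11 arrays, at 0.36 and -0.21 (adjusted p = 0.169 and 0.565 by limma). In Group D vs Group M these were the damage kinase gene Atr at -0.82 and Cdkn2a at -0.67 (adjusted p = 0.183 and 0.0835 by limma), and in Group D vs Group C Atr at -0.75 and Atm at -0.57. D12 was above each of D9 to D11 for these genes, at -5.13 for Atr, -5.11 for Cdkn2a and -4.23 for Atm.

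Of 38 further p53 targets, 35 were measured and 0 were called in the 3 comparisons (0.168%, 0.125% and 0.00659% of all probes). The raw limma p was 0.05 or less in Group M vs Group C for 6 higher and 8 lower genes (9.86% and 12.9% of all probes), in Group D vs Group M for 6 and 7 (11.8% and 9.85%), and in Group D vs Group C for 1 and 2 (3.15% and 2.83%). Their median difference in Group M vs Group C was -0.04, beside -0.01 over all probes. The criterion of the methods was met by 3 genes in Group M vs Group C (2.33% of all probes) and by 2 in Group D vs Group M (2.65%). Group M lay wholly above Group C for 2 of the 35 genes (4.07% of all probes) and wholly below it for 5 (5.17%).

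Ercc5, an endonuclease of nucleotide excision repair, gave 1.71, 1.65, 1.74 and 2.06 in C1 to C4, 0.74, 1.17, 0.07 and 0.52 in M5 to M8, 0.96, 1.60 and 1.73 in D9 to D11 and 0.25 in D12. Group M lay wholly below Group C, by 1.16 ± 0.24 (SE, adjusted p = 0.0868 by limma). Gdf15, a secreted stress cytokine, gave -0.77, -1.33, -1.05 and -2.95 in C1 to C4, -2.79, -2.29, -3.23 and -2.79 in M5 to M8, -0.87, -1.28 and -1.02 in D9 to D11 and -2.67 in D12. C4 and D12 lay among Group M, and D9 to D11 were 1.72 ± 0.45 (SE) above Group M (adjusted p = 0.0988 by limma). Tnfrsf10b, a death receptor, was 1.18 ± 0.28 (SE) higher in Group M than in Group C (adjusted p = 0.0975 by limma), with 1 of 4 rats of Group C well above background. Rprm, an inducer of arrest at mitosis, was well above background in 1 of 4 rats of Group M, with means of -5.74, -6.74 and -5.42 in Groups C, M and D (adjusted p = 0.116 for Group M vs Group C and 0.0895 for Group D vs Group M by limma). D12, at -6.67, lay among Group M.

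Among 26 relatives of the member genes, 0 were called in the 3 comparisons (0.168%, 0.125% and 0.00659% of all probes). Of them, 10, 8 and 2 had a raw limma p of 0.05 or less (22.7%, 21.6% and 5.98% of all probes). Gadd45g, a paralog of Gadd45a, gave -0.41, 0.32, -0.45 and -0.39 in C1 to C4, 1.01, 0.47, 1.77 and 1.19 in M5 to M8, 0.57, -0.46 and -0.31 in D9 to D11 and 1.88 in D12. It was 1.34 ± 0.31 (SE) higher in Group M than in Group C (adjusted p = 0.0967 by limma) and 1.18 ± 0.34 lower in Group D than in Group M (adjusted p = 0.111 by limma). Bcl2a1, an anti-apoptotic relative of Bax, was 1.60 ± 0.50 (SE) lower in Group D than in Group M (adjusted p = 0.125 by limma), and D12, at -2.28, lay among Group M. Ccng2, the paralog of Ccng1, was 0.16 ± 0.17 (SE) higher in Group M than in Group C (adjusted p = 0.632 by limma).

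Sesn2 also belongs to the genes of the integrated stress response, driven by Atf4. Of 16 of these genes 0 were called in the 3 comparisons (0.168%, 0.125% and 0.00659% of all probes). In Group M vs Group C, 7 were higher and 1 lower with a raw limma p of 0.05 or less (9.86% and 12.9% of all probes). The 1 that was lower was Sesn2. The asparagine synthetase gene Asns was 1.26 ± 0.28 (SE) higher in Group M (adjusted p = 0.0904 by limma) and 1.13 lower in Group D than in Group M (adjusted p = 0.1 by limma). Psat1, of serine synthesis, was 2.84 lower in Group D than in Group M (adjusted p = 0.117 by limma). D12 lay among Group M for both, at -0.73 for Asns and -0.98 for Psat1. Of 19 immediate early genes, the group to which Btg2 belongs, Arc rose in Group M vs Group C by 2.73 (adjusted p = 0.0409 by limma) and fell by 2.85 in Group D vs Group M (adjusted p = 0.0476 by limma). With D12, at -0.59 above every rat of Group M, neither call held. Fosl1, Nr4a3 and Myc met the criterion of the methods in both comparisons, higher in Group M, with adjusted p values of 0.0809 to 0.110 by limma. In each of these comparisons 4 of the 19 genes met it (2.33% and 2.65% of all probes). D12 lay among Group M for Fosl1 (0.48) and above it for Nr4a3 (-1.04) and Myc (1.54).

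**Figure D3:**
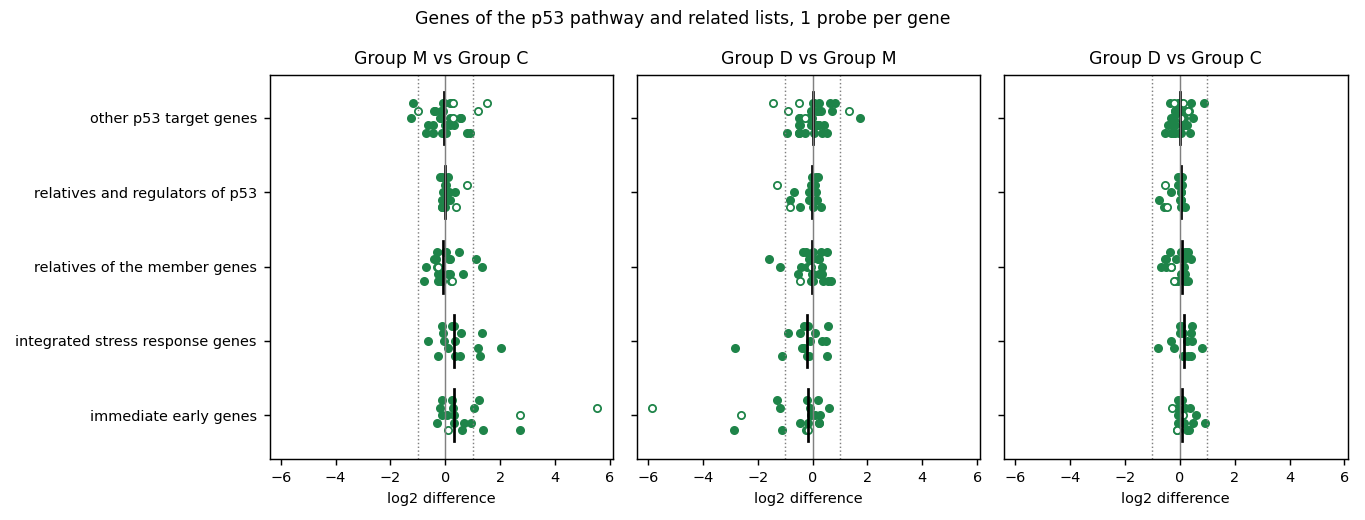
Log2 difference of each gene of 5 lists in the 3 comparisons, with 1 probe per gene, open where the probe was not well above background on all 11 arrays, the median as a bar and 2-fold as dotted lines. The medians lie between -0.20 and 0.32; the widest differences, beyond 5, are those of Fosl1.

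Of the 11 lists of markers for cell types, with 93 genes measured, 0 genes were called in the 3 comparisons (0.168%, 0.125% and 0.00659% of all probes). In the same order, 25, 36 and 10 genes had a raw limma p of 0.05 or less (22.7%, 21.6% and 5.98% of all probes). The criterion of the methods was met by 6, 4 and 1 of the 93 genes in these comparisons (2.33%, 2.65% and 0.366% of all probes). In Group M vs Group C, Car1 was lower in Group M, and Ccna2, Rrm2, Gfap, Cxcr2 and Il1r2 were higher. In Group D vs Group M, Car1 was higher in Group D, and Mcm2, Rrm2 and Gfap were lower. In Group D vs Group C, Cela1 was lower in Group D. Cxcr2 in Group C (mean -8.15) and Gfap in D9 to D11 (mean -7.46) were well above background in no rat. The colonic epithelium was plain in every rat, with 12 of 12 markers well above background in all 11 rats. The squamous markers Krt1, Krt10, Dsg3 and Ivl and the pancreatic markers Prss1, Cpa1, Pnlip and Amy2 were above background in none of the 11 rats. Of proliferating cells, 10 of 12 markers were higher in Group M than in Group C with a raw limma p of 0.05 or less (9.86% of all probes), with a median difference of 1.36 and overlapping sums.

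Among 11451 named genes well above background on all 11 arrays, those with a pattern most like that of Ccng1 were Rnf19a (r = 0.95), Vegp2 (0.89), Krtap1-5 (0.88), Drg1 (0.87) and Adamts19 (0.87), as a description over the 11 arrays. Rnf19a gave 0.12, 0.16, 0.40 and 0.88 in C1 to C4, 0.83, 0.92, 1.07 and 1.09 in M5 to M8, 0.81, 0.92 and 0.96 in D9 to D11 and 1.14 in D12. C1 to C3 were the lowest rats, which the choice by r with Ccng1 favours, but C4 lay within the range of the separated rats. The 5 genes differed between Group M and Group C by 0.20 to 0.59, against 2.45 for Ccng1. The other members had an r with Ccng1 between -0.58 (Sesn2) and 0.54 (Gadd45a) over the same arrays.

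**Figure D4:**
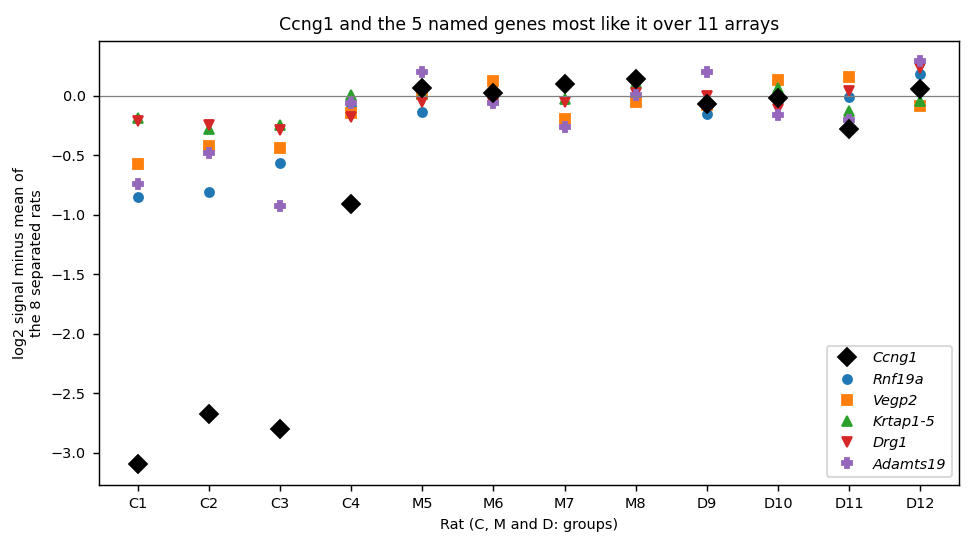
Log2 signal of Ccng1 and of the 5 named genes most like it, each minus its own mean over the 8 separated rats, for every rat. Ccng1 of C1 to C3 lies far below that of C4. The other 5 genes were picked by their r with Ccng1 on these arrays, so a low mean in Group C follows from the choice. They span a narrower range.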

How the data were processed

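Per the labels and methods, RNA (100 ng) of each colon was labelled with Cy3 and hybridized to 1-colour Agilent arrays. The intensities that the authors deposited were background-subtracted by the scanner software and are linear and not normalized between arrays. The authors' matrix, used as an alternative, holds log2 values.

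Control spots and spots marked as outliers (277 to 521 an array) were left out, each array was scaled to its 75th percentile, and each probe is the mean log2 of its spots. Groups were compared on 11 arrays with limma 3.58.1 (R 4.3.3; lmFit and eBayes, 3 groups in 1 model) with Benjamini-Hochberg adjustment over all 30367 probes. The procedure was tested on simulated data. The number of rats limits the precision. The p values set each difference against the spread between rats within groups, as estimated by limma. The litters of the rats are not given, so rats of a group may be littermates. Litter therefore cannot be told apart from group. The SE and intervals are those of limma. Alternatives were all 12 arrays, other background corrections and normalizations, the authors' matrix, outliers kept, a filter on dim probes, the replicate number as a block, only the 2 groups compared, the criterion of the methods and each rat left out.

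Lists use 1 probe per gene, that of the highest mean signal. The genes named are all members, the listed genes that pass a threshold or the criterion of the methods, or else the 2 with the largest difference well above background, and the 5 genes most like Ccng1. For Group D vs Group C, only the pair of the list of relatives and regulators of p53 is printed, and for the marker lists no such pairs. Ccng2 was named after its values were seen. The members, lists and rules were chosen with earlier results of these data known. Gene names are those of the files. One listed gene is not reported here.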

Additional observations from a re-analysis of the deposited data

Results flagged for a closer look

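Of 33 sets of 4 rats (11 probes in Groups C, M and D, the last with D12), 3 had a rat whose gap to its nearest neighbour, as a share of the whole range, passed the 95% critical value of Dixon for 4 samples, and chance alone gives about 1 in 20. In Group M, rat M7 was the lowest by the second Cdkn1a probe (ratio 0.91) and the highest for Gadd45a (0.94). In Group D, D12 was the lowest for Sesn2 (0.899).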

How the results depend on the processing

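Over 20 alternatives, 0 of the 10 probes beside Ccng1 were called in any of the 3 comparisons. The alternatives reuse the same arrays, and the reported fit called 0.168%, 0.125% and 0.00659% of all probes. The count of 0 therefore says little of these 10 probes. The difference of Ccng1 ran from 2.21 to 2.94 in Group M vs Group C and from 2.00 to 2.73 in Group D vs Group C. The whole-array counts were less stable; the causes were not tested. In Group M vs Group C, 51 probes became 10 with all 12 arrays, 28 by the authors' matrix, 80 with the filter on dim probes, 23 with only both groups compared, 707 by the criterion of the methods and 4 to 1778 with a rat left out (1778 without M6). In Group D vs Group M, 38 became 4 with all 12 arrays, 88 with normexp, 176 with the filter, 12 with only both groups, 805 by the criterion and 1 to 1978 with a rat left out (1978 without M6). In Group D vs Group C, 2 became 0 by quantile normalization, 4 by the matrix, 0 with only both groups, 111 by the criterion and 0 to 12 with a rat left out. With the replicate number as a block, the 3 counts were 1, 1 and 0. Rats of the same number did not deviate together (10 pairs, r from -0.72 to 0.18). The number is also the column of the array on its slide. With so few rats in a group, these r values cannot decide whether the numbers pair the arrays. By the criterion, the counts called in Group M vs Group C and Group D vs Group M became 3 and 2 of 35 further p53 targets. They became 1 and 2 of 26 relatives, 1 and 2 of 16 stress response genes, and 4 and 4 of 19 immediate early genes. Of all probes, 2.33% and 2.65% met the criterion. By the criterion with all 12 arrays, the counts of the 4 lists were 2 and 0, 0 and 0, 1 and 0, and 2 and 0. By limma with all 12 arrays, the 1 and 1 calls of immediate early genes became 0 and 0.

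Of 25 differences that changed sign, the 24 beside Ccng1 had a reported size of at most 0.17. With all 12 arrays, Group D vs Group M became 0.061 for the second Mdm2 probe, -0.042 for the second Cdkn1a probe and 0.17 for Btg2. The median shift gave 0.076 for that Mdm2 probe, and the replicate block 0.047 for Ccng1 in Group D vs Group M and -0.039 for Bax in Group D vs Group C. With outlier spots kept, Group D vs Group C was -0.0053 for the first Mdm2 probe and -0.0036 for Bax. With a rat left out, Group M vs Group C ran from -0.081 to 0.32 for the first Cdkn1a probe, from -0.014 to 0.22 for the second and from -0.40 to 0.26 for Pmaip1. Group D vs Group M ran from -0.064 to 0.054 for the second Mdm2 probe, from -0.075 to 0.32 and from -0.035 to 0.078 for the Cdkn1a probes, and from -0.31 to 0.039 for Btg2. Group D vs Group C ran from -0.13 to 0.094 for the first Mdm2 probe, from -0.12 to 0.089 for Bax and from -0.25 to 0.023 for Bbc3. The number of rats, the slide of Group D, the array rows of Groups C and M and, for Pmaip1, a signal close to background limit these values.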

Other observations

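The surroundings of Ccng1 were looked at after its values were known. Within 1000000 bases of its probe on chromosome 10 of rn4 lay 8 other probes, of which 6 were well above background on all 11 arrays. Their differences in Group M vs Group C ran from -0.51 to 0.37 and 0 of the 6 were called by limma or met the criterion of the methods. The closest named gene, Nudcd2, 10926 bases away, differed by -0.03 and -0.05 on its 2 probes (adjusted p = 0.938 and 0.867 by limma). Mat2b, which encodes a subunit of methionine adenosyltransferase, was 60323 bases away or more and was lower in each rat of Group M than in any rat of Group C, by -0.51 and -0.48 on its 2 probes (adjusted p = 0.1 and 0.111 by limma). A probe without a gene name, 14629 bases away, was higher in each rat of Group M than in any rat of Group C, by 0.37 (adjusted p = 0.109 by limma). Over all probes, Group M lay wholly below Group C for 5.17% and wholly above it for 4.07%. These values are a description, and nothing was tested from them.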
